A study of Mus musculus with 6 samples.

Results

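The Serpina3 cluster of the mouse was examined through 7 of its genes, Serpina3c, Serpina3f, Serpina3g, Serpina3i, Serpina3k, Serpina3m and Serpina3n. A probe was taken when it was no control and its RefSeq accession matched one of these genes. Of the 7 genes, 6 had a matched probe, with 8 probes in all, among 22910 genes reached on the array, and Serpina3g had no matched probe. The genes were selected on measured values, namely the difference in log2 intensity between TGF-β1-treated and control cultures on these same arrays, so the differences below describe them and no test of a member is given. Of the 7, only Serpina3f passed the filter on low signal that the fit across all genes used, and it passed through the TGF-β1 arrays alone.

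The cultures were 2D-MAOs, airway epithelial organoids grown from lung airway epithelial cells of C57BL/6 mice and plated flat in wells. The 3 TGF-β1 cultures received TGF-β1 from day 3 and the 3 control cultures did not, and the microarray methods give no dose. Both groups were kept from then on in medium that lacked the BMP inhibitor noggin and the TGF-β receptor inhibitor A83-01, and both were collected on day 7. The 3 cultures of a group were called biological replicates in the methods, and whether they came from separate mice is not given in the sources used here. The RNA of each culture was hybridised to 1 single-dye Agilent mouse array, and all 6 arrays lay on 1 slide.

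Serpins are protease inhibitors that act once. The target protease cuts an exposed loop of the serpin, and the serpin then springs into a new fold that traps the protease. Humans carry a single SERPINA3 gene, for α1-antichymotrypsin, a secreted acute phase protein of the liver and of inflamed epithelium that inhibits cathepsin G and chymase. In the mouse the same locus has expanded into a row of paralogues that differ most in the loop that meets the protease, and several of them respond to inflammatory cytokines and glucocorticoids.

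The RefSeq gene table held 14 Serpina3 genes on chromosome 12, of which 10 were protein coding and 4 were pseudogenes. Among them, Serpina3f, Serpina3g, the transcribed pseudogene Serpina3h and Serpina3i followed one another. The start-site regions of Serpina3f and Serpina3i are shown because their probes were the brighter ones in TGF-β1 cultures, and that of Serpina3n because its probe stayed at the bottom of the signal range in both groups. Each runs from 250 bases before to 50 bases after the RefSeq start of the assembly GRCm38.p6. Capitals mark matches, on either strand, to TTCNNNGAA, the pattern bound by STAT factors, and to CAGAC, the short site bound by SMAD factors.
Serpina3f, chr12:104214294-104214593, plus strand: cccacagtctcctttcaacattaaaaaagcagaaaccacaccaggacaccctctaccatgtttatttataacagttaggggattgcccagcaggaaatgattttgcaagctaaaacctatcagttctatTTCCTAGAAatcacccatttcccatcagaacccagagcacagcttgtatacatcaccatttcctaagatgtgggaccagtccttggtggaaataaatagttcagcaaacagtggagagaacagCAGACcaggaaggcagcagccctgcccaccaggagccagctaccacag
Serpina3i, chr12:104262872-104263171, plus strand: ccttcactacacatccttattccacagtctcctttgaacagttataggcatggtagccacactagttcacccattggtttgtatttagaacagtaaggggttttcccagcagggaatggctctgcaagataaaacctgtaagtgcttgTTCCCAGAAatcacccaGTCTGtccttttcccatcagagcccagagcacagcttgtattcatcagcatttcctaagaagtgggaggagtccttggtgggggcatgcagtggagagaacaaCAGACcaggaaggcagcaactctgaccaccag
Serpina3n, chr12:104406458-104406757, plus strand: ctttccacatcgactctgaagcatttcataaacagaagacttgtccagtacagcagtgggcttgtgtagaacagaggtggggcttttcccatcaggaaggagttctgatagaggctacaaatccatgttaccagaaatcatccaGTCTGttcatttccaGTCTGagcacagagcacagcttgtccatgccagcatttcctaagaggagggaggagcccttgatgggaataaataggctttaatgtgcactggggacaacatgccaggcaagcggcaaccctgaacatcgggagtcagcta

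The Serpina3f region held TTCNNNGAA at positions -121 to -113 from the start and CAGAC at 3 to 7. A second RefSeq start of Serpina3f lay downstream, and its window overlapped the one shown. In the Serpina3i region TTCNNNGAA stood at -102 to -94, and CAGAC stood at -85 to -81 on the reverse strand and at 19 to 23. The region of Serpina3g, the gene without a matched probe, held TTCNNNGAA at -33 to -25 and CAGAC at 2 positions on the reverse strand. The regions of Serpina3c and Serpina3n held no TTCNNNGAA and held CAGAC at 2 positions each, all on the reverse strand. Of all 32851 promoters of the same length, 8.3% held TTCNNNGAA and 49.6% held CAGAC. GTCTAGAC, the SMAD palindrome, was in 0.213% of promoters, and the AP-1 pattern TGACTCA, or TGAGTCA read on the other strand, was in 5.2%. Neither was found in the region of any Serpina3 gene that the table held. No promoter row was matched for Serpina3h, Serpina3k or Serpina3m.

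The paralogues resembled each other along these windows. The Serpina3f and Serpina3i regions shared 223 of 269 aligned bases (82.9%), and those of Serpina3f and Serpina3g shared 169 of 202 (83.7%). Serpina3f and Serpina3n shared 199 of 281 (70.8%). The closest pair was Serpina3c and Serpina3n with 275 of 294 (93.5%). Windows of related genes are not independent, so a pattern found in several of them is a description of the family.

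Serpina3f had the largest difference of the 8 probes. Its probe A_55_P2142226 read 1.58, 3.21 and 2.58 in control replicates 1, 2 and 3 on the log2 scale of quantile-normalised intensity. In TGF-β1 replicates 1, 2 and 3 it read 7.54, 7.36 and 5.95. All 3 TGF-β1 arrays stood above all 3 control arrays, and the lowest of the treated cultures was replicate 3. The probe was well above background, by the mark that Agilent Feature Extraction sets, on 3 of 3 TGF-β1 arrays and on 0 of 3 control arrays. Before normalisation its background-subtracted intensity was 3.44, 7.41 and 5.94 in the controls against 222, 165 and 61.5 in the treated cultures. The median brightness of the spot was 1.13 to 1.42 times its local background on the control arrays and 2.95 to 7.32 times on the TGF-β1 arrays.

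The mean of Serpina3f was 2.46 ± 0.82 (SD, n = 3) without TGF-β1 and 6.95 ± 0.87 (SD, n = 3) with it, a difference of 4.49 on the log2 scale with a limma SE of 0.52. Because the control arrays gave no level above background, the change was taken as a bound. The reference on each control array was the lowest level of any probe marked well above background there. Where a probe's own control reading was higher, that reading was used. On the quantile-normalised scale Serpina3f was at least 7.86-fold higher than this reference. The reference is not a detection limit, and with normexp background correction the log2 difference was 1.58, smaller than this bound. The bound was at least 8.66-fold with scaling to the 75th percentile and at least 11.1-fold without TGF-β1 replicate 3. Across the array, 1.19% of the genes tested were called higher and 0.188% lower, at a fold of 2 or more and a Benjamini-Hochberg adjusted p under 0.05. Serpina3f was among the genes called higher, as its choice implied, but not under every setting tried, and nothing is read from that. Counted separately over all probes, 0.239% were well above background on every TGF-β1 array and on no control array. Of the 8 member probes, this was seen at A_55_P2142226 alone. The 2 counts overlap.

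The second Serpina3f probe, A_55_P2104975, did not show the same pattern. It read 1.53 on each control array, and 1.53, 3.37 and 1.53 in TGF-β1 replicates 1, 2 and 3. It was not well above background on any of the 6 arrays, and the difference of 0.61 came from TGF-β1 replicate 2. Both probes carry the same RefSeq transcript, so the measurement of Serpina3f rests on 1 of its 2 probes. The files hold no probe sequences, and whether either probe also binds the RNA of a paralogue was not tested.

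**Figure D1:**
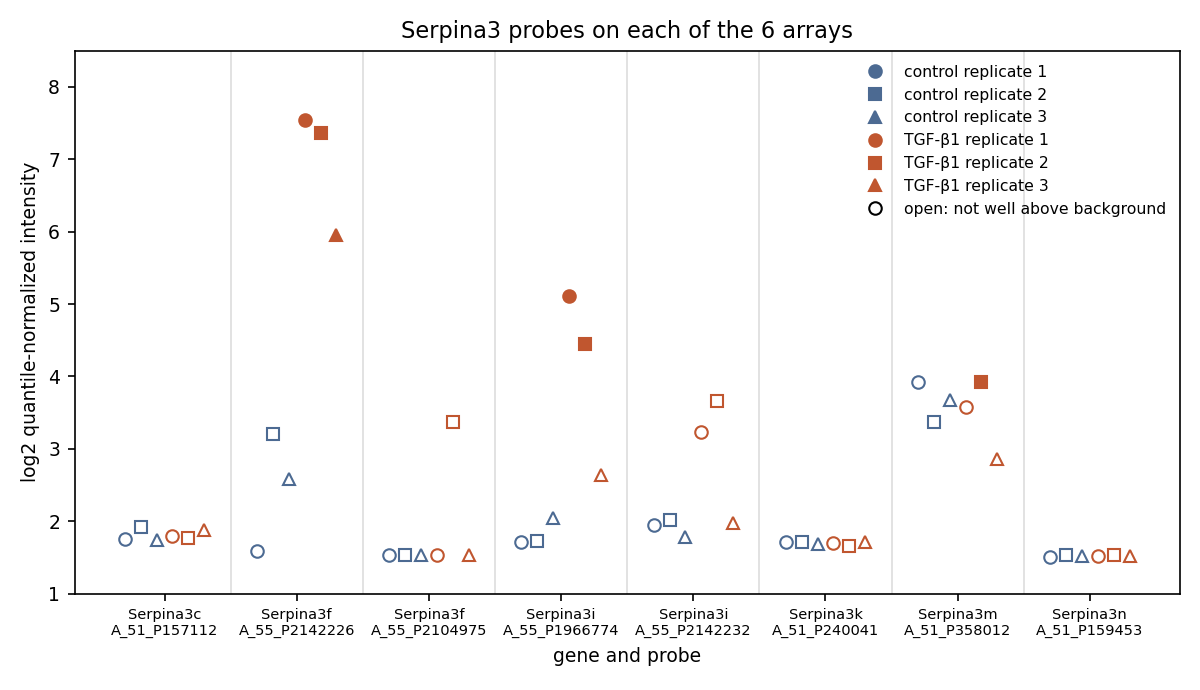
Log2 quantile-normalised intensity (y axis) of the 8 probes matched to 6 Serpina3 genes (x axis) on each of the 6 arrays; blue is control and orange TGF-β1, the marker shape gives the replicate, and open markers were not well above background. The Serpina3f probe A_55_P2142226 reads 1.58 to 3.21 in controls and 5.95 to 7.54 after TGF-β1, whereas 5 of the 8 probes were well above background on no array.

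Serpina3i, the coding gene that follows Serpina3h, was also brighter after TGF-β1, with fewer arrays well above background. Its probe A_55_P1966774 read 1.71, 1.73 and 2.04 in control replicates 1, 2 and 3. In TGF-β1 replicates 1, 2 and 3 it read 5.11, 4.45 and 2.63. The groups did not overlap, and replicate 3 of the treated cultures lay nearest to the controls. The probe was well above background on TGF-β1 replicates 1 and 2 and on no other array. The means were 1.82 ± 0.19 (SD, n = 3) and 4.06 ± 1.28 (SD, n = 3), a difference of 2.24. Taken against the same kind of reference, Serpina3i was at least 1.06-fold higher over the 3 treated arrays and at least 1.75-fold higher without TGF-β1 replicate 3.

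The other Serpina3i probe, A_55_P2142232, read 1.94, 2.02 and 1.78 in the controls and 3.23, 3.66 and 1.98 after TGF-β1. The mark for signal well above background was set on none of the 6 arrays. The first and second treated cultures lay above every control, while TGF-β1 replicate 3 fell inside the control range. No fold is given for this probe, as neither group was measured above background. In 2 of the 8 member probes, those of Serpina3f and Serpina3i named first, all 3 TGF-β1 arrays lay above all 3 control arrays, an arrangement seen in 9.59% of all probes.

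Serpina3m was the remaining member with any signal. Its probe A_51_P358012 read 3.92, 3.37 and 3.67 in the controls and 3.57, 3.93 and 2.85 in TGF-β1 replicates 1, 2 and 3. The groups overlapped, with a difference of means of -0.21. Only TGF-β1 replicate 2 was marked well above background, so no change of Serpina3m was measurable on these arrays.

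Serpina3n, which encodes a secreted inhibitor of leukocyte elastase and granzyme B and is a well-known acute phase gene of brain and liver, gave no signal. Its probe A_51_P159453 ranged from 1.51 to 1.53 over the 6 arrays. Its background-subtracted intensity of 3.31 in control replicate 1 compared with a lowest value of 3.29 for any probe on that array. Serpina3c (A_51_P157112) ranged from 1.75 to 1.93 in controls and from 1.76 to 1.88 after TGF-β1. Serpina3k (A_51_P240041), known as a kallikrein-binding protein abundant in liver, ranged from 1.68 to 1.71 and from 1.66 to 1.71. None of these 3 probes was well above background on any array, so whether Serpina3c, Serpina3k or Serpina3n changed could not be measured. Across the array, 38% of all probes were in the same state. Serpina3g, the cytosolic paralogue known as Spi2A that inhibits lysosomal cathepsins, was given no value because no probe was matched to it. Of 35883 probes with a RefSeq accession 32991 matched a gene. A probe for Serpina3g is likely among those left unnamed, and its reading was not used.

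Of the other Serpina3 genes, the transcribed pseudogene Serpina3h was also brighter after TGF-β1. Its probe A_55_P2142222 read 4.22, 4.17 and 3.88 in the controls and 6.76, 6.81 and 5.50 in TGF-β1 replicates 1, 2 and 3. As with Serpina3f, the groups did not overlap, the probe was well above background on 3 of 3 treated arrays and on 0 of 3 control arrays, and the third treated culture was lowest. The difference was 2.27, and Serpina3h was at least 4.79-fold higher (at least 6.44-fold without TGF-β1 replicate 3). Its own readings in control replicates 1 and 3 lay above the reference, so the bound stayed near the plain fold of 4.81. Serpina3h passed the filter through the TGF-β1 arrays alone, so no p is given for it. Serpina3h is a paralogue of Serpina3f and Serpina3i, and whether the probes of the 3 genes measured separate RNAs was not tested.

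Serpina3b, which lies outside that stretch, was well above background on all 6 arrays. It read 5.70, 5.93 and 5.41 in controls and 5.56, 5.43 and 5.59 after TGF-β1, a difference of -0.15 (SE 0.15, adjusted p = 0.566 in limma). The 3 probes of Serpina3a and the probe of Serpina3j were well above background on no array. Of the Serpina3 genes outside the stretch from Serpina3f to Serpina3i, Serpina3b alone had a level above background in both groups, so the others could not be compared.

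**Figure D2:**
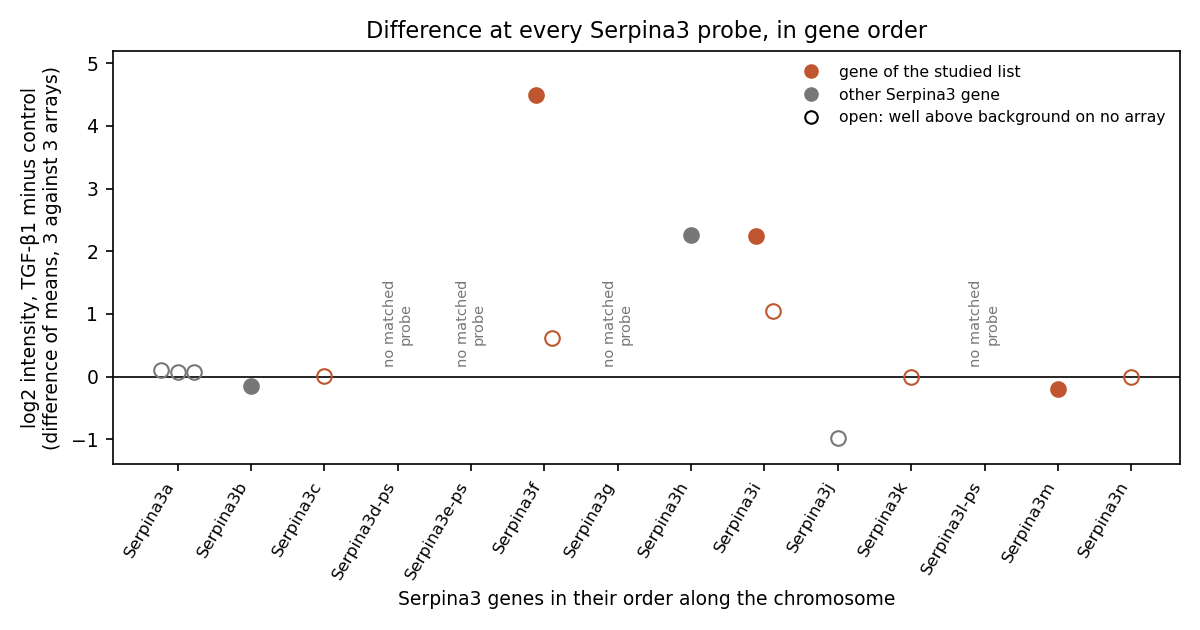
Difference of mean log2 intensity, TGF-β1 minus control (y axis), for every matched Serpina3 probe, with the 14 genes in their chromosomal order (x axis, evenly spaced and not to scale); orange marks the studied genes, grey the other paralogues, and open circles probes well above background on no array. The highest points are Serpina3f (4.49), Serpina3h (2.27) and Serpina3i (2.24), all against control arrays on which the probe was not well above background, and 4 genes had no matched probe.

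The 3 neighbours were lowest in the same treated culture. TGF-β1 replicate 3 was the lowest treated array for Serpina3f, Serpina3h and both Serpina3i probes. The same was true of 68.4% of the genes called higher and of 36.5% of all genes tested. TGF-β1 replicate 3 lay at a mean distance of 58.4 from the control arrays, against 74.4 and 73.8 for the other treated arrays (Euclidean distance over the log2 values of the genes tested). The arrays of replicate 3 in both groups lay in the second row of the slide and the other 4 in the first. Within the first row, Serpina3f differed by 5.05 and the Serpina3i probe A_55_P1966774 by 3.06, and between the single pair of arrays in the second row by 3.37 and 0.59. The part of slide position in these differences was not tested.

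The genes with profiles nearest to that of Serpina3f are given as a description. Likeness was the root mean square difference between profiles over the 6 arrays, after the mean of each profile was subtracted. The 5 nearest of the other genes tested were Sfrp2 (0.327), Prss46 (0.433), Tcim (0.490), Tgfbi (0.519) and Cd40 (0.571). The neighbours in the cluster were not among the nearest. Serpina3h lay at 1.23, with 64 tested genes nearer. The Serpina3i probes A_55_P1966774 and A_55_P2142232 lay at 1.25 and 1.79, with 69 and 356 genes nearer. Sfrp2 encodes a secreted modulator of Wnt signalling, Tgfbi a protein of the extracellular matrix whose gene TGF-β is known to induce, and Cd40 a receptor of the TNF receptor family. Sfrp2 read 1.54, 2.51 and 2.91 in controls and 7.14, 7.13 and 5.50 after TGF-β1, and its probe, like that of Serpina3f, was well above background on treated arrays alone. Tgfbi read 4.95, 5.06 and 5.04 in controls and 10.30, 9.49 and 8.99 after TGF-β1. The control values of Serpina3f were not above background, so its distances are not exact. The measure takes in the size of the difference as well as its shape, so genes whose differences were of like size ranked as near.

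**Figure D3:**
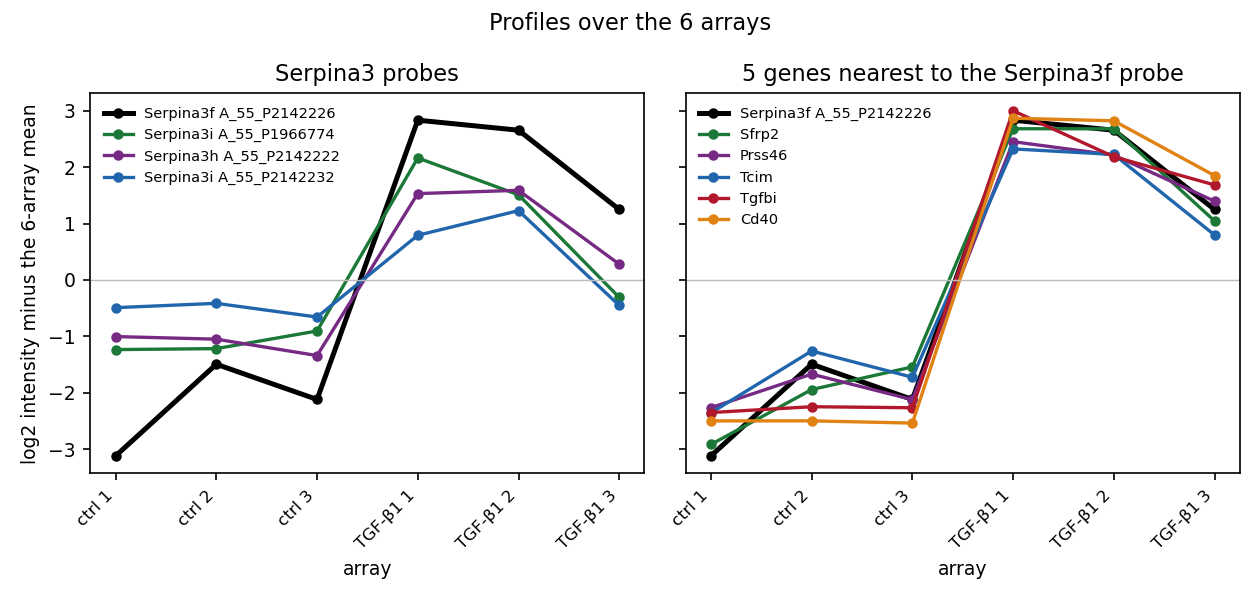
Log2 intensity minus the mean over the 6 arrays (y axis) for each array (x axis; ctrl is control), with Serpina3f A_55_P2142226 in black in both panels. The left panel adds Serpina3h and both Serpina3i probes and the right panel the 5 nearest genes; TGF-β1 replicate 3 is the lowest treated array in every profile drawn.

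The size of these differences moved with the background correction. With normexp correction of the spot and local background medians and an offset of 50, Serpina3f differed by 1.58, Serpina3h by 0.75 and the probes A_55_P1966774 and A_55_P2142232 of Serpina3i by 0.31 and 0.12. The direction was the same for these 4 probes under each setting tried. For a probe that was dim in the controls, the log2 difference thus depended on how background was removed. The folds given as at least hold only for the scale on which they were taken. The normexp differences of Serpina3f and Serpina3h lay below theirs.

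**Figure D4:**
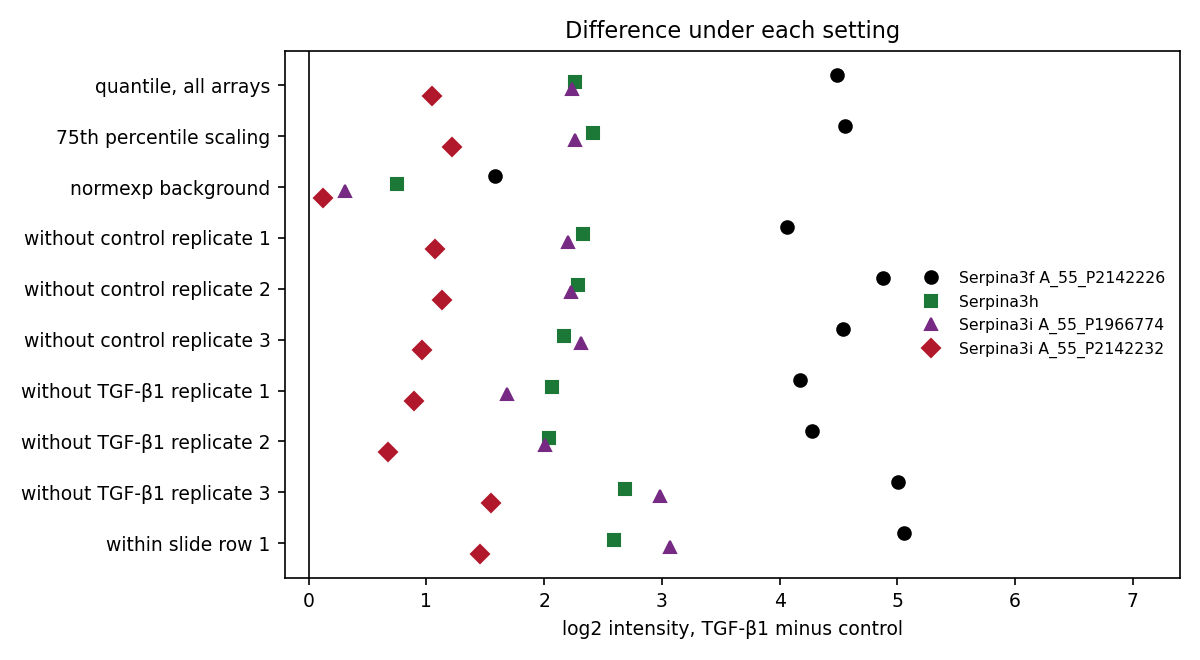
Log2 difference, TGF-β1 minus control (x axis), of Serpina3f, Serpina3h and the 2 Serpina3i probes under each setting (y axis). All points lie above 0, and those under normexp background correction are the smallest, at 1.58, 0.75, 0.31 and 0.12.

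Other serpins outside the cluster were followed through a list of 52 genes, 51 of them on the array and 29 past the filter. Their differences spread to both sides, 14 higher and 15 lower, with a median of -0.02 beside -0.03 for all genes tested. Of the 29, 2 were called higher, Serpina5 and Serpini1, and none lower. Of all genes tested, 1.19% were called higher and 0.188% lower. Among the 29, 9 had an unadjusted limma p under 0.05 in either direction, a share to be read beside 22.2% of all genes tested. Serpina5, the protein C inhibitor and a clade A relative of Serpina3, was well above background on the treated arrays alone. It passed the filter through these arrays, so no p is given for it. Serpina5 was at least 1.57-fold higher (difference 2.30, SE 0.34), but with normexp background its difference was 0.37, smaller than that bound. Serpini1, neuroserpin, differed by 1.35 (SE 0.22, adjusted p = 0.0391 in limma, from 0.00860 to 0.207 over the alternatives), and by 0.69 with normexp background. Serpina10, the inhibitor that acts with protein Z, had -1.90 (SE 0.58, adjusted p = 0.146) and was well above background on 3 control arrays and 1 treated array. Serpinb7 had -1.72 (SE 1.15, adjusted p = 0.395), a value that rested on TGF-β1 replicate 3 (2.50 against 6.90 and 6.91 in the other treated arrays) and was -0.25 without it.

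**Figure D5:**
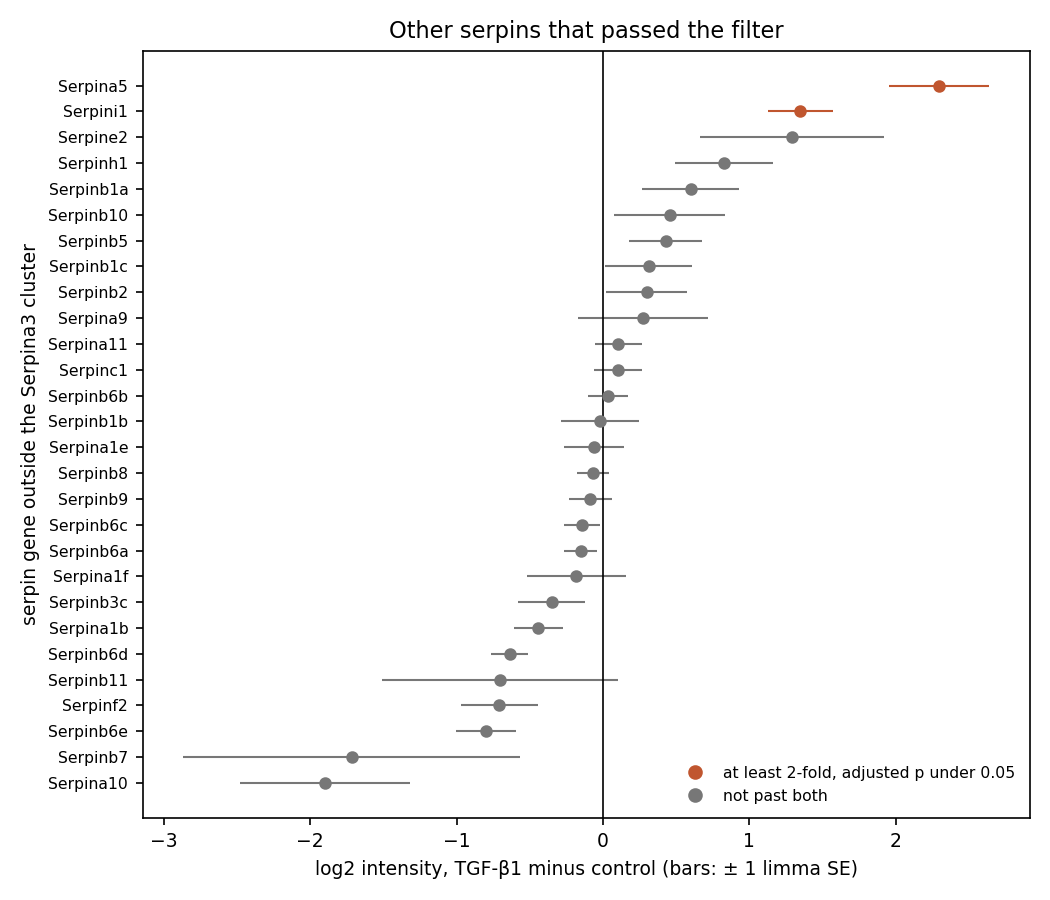
Log2 difference, TGF-β1 minus control, with 1 limma SE to each side (x axis), for 28 of the 29 serpin genes outside the Serpina3 cluster that passed the filter (y axis, sorted). The 2 genes called higher, Serpina5 (2.30, not well above background in controls) and Serpini1 (1.35), are in orange, and Serpina10 (-1.90) lies at the lower end without passing the threshold.

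Proteases that inhibitors of the Serpina3 type are known to bind were mostly below detection. Of 18 such genes 17 were on the array and 6 passed the filter, all well above background in both groups. None was called, beside 1.19% of all genes tested called higher and 0.188% lower. Of the 6, 2 had an unadjusted p under 0.05, against 22.2% of all genes tested. The largest differences were those of the neutrophil elastase gene Elane (-0.56, SE 0.23, adjusted p = 0.222 in limma, and -0.29 without TGF-β1 replicate 1) and of the cathepsin gene Ctsh (0.46, SE 0.10, adjusted p = 0.0873). The median of the 6 was 0.22.

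Genes of the pathways known to drive Serpina3 genes elsewhere were next compared. Of 32 acute phase and IL-6/STAT3 response genes 22 passed the filter, with a median of 0.06. Of these, 1 was called, beside 1.19% of all genes tested called higher and 0.188% lower. This was Lcn2, which encodes the iron-siderophore binding protein lipocalin 2. It read 1.41 higher on the log2 scale after TGF-β1 (SE 0.20, adjusted p = 0.0221 in limma, from 0.00529 to 0.169 over the alternatives), and 5 of the 22 had an unadjusted p under 0.05, a share close to the 22.2% of all genes tested.

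Of 22 interferon-γ response genes 16 passed the filter, with a median of 0.24. None was called at a fold of 2, beside 1.19% of all genes tested called higher and 0.188% lower. Of the 16, 4 had an unadjusted p under 0.05 (22.2% of all genes tested had one) and 2 had an adjusted p under 0.05 in limma (2.04% of all genes tested). These were Socs1, a feedback inhibitor of JAK signalling (0.93, SE 0.15, adjusted p = 0.0357), and the GTPase gene Igtp (0.88, SE 0.16, adjusted p = 0.0465). The largest differences were those of the chemokine gene Cxcl10 (1.89, SE 0.57, adjusted p = 0.145) and of Gbp6 (-0.98, SE 0.75, adjusted p = 0.452). Without TGF-β1 replicate 3, Cxcl10 differed by 2.52 and passed the threshold (adjusted p = 0.0131), and Gbp6 by -0.03. Within the first row of the slide alone, the difference of Gbp6 was 0.13. Of 8 glucocorticoid response genes 7 passed the filter and none was called, beside the same shares of all genes tested. Of the 7, 1 had an unadjusted p under 0.05 (22.2% of all genes tested), and the median was -0.23. Tsc22d3 had -0.68 (SE 0.35, adjusted p = 0.291), with -0.36 without control replicate 1 and -1.09 (adjusted p = 0.0434, called) without control replicate 3. Per1 had -0.36 (SE 0.15, adjusted p = 0.223), and -0.23 without control replicate 1.

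The cultures carried the markers of their label. All 8 markers of airway and lung epithelium were well above background on all 6 arrays. Of the 4 basal cell markers all were, and their summed linear intensity was 26429 to 44546 in controls and 53773 to 131331 after TGF-β1. Of 7 markers of type 1 and type 2 alveolar cells, 5 were well above background on all 6 arrays, and Sftpc and Sftpb on none. The alveolar sums were 132569 to 162045 in controls and 131406 to 161333 after TGF-β1. For 8 fibroblast markers the sums were 577 to 647 and 705 to 2699, and Col3a1, Pdgfrb and Lum were well above background on no array. Col1a1 and Col1a2 were called higher (at least 2.16-fold and at least 2.38-fold). Both passed the filter through the TGF-β1 arrays alone, so no p is given for them. For 8 leukocyte markers the sums were 10578 to 12298 and 13572 to 14762, and Ptprc, Lyz2 and Adgre1 were well above background on no array. Of 5 endothelial markers, Cdh5, Kdr and Tek were well above background on no array, Vwf on 3 arrays and Pecam1 on all 6. Of 6 hepatocyte markers, Alb, Apoa1, Ttr and Ahsg were well above background on no array, Tat on 4 arrays and Apoa2 on all 6. Of 7 secretory and ciliated cell markers 5 passed the filter. Foxj1, a factor of ciliated cells, was called higher (1.47, SE 0.10, adjusted p = 0.00239 in limma). Dnah5 (0.34), Tppp3 (0.26), Scgb3a2 (1.05) and Scgb1a1 (-2.27, adjusted p = 0.158) were not called, and Muc5ac and Muc5b were well above background on no array. In RNA of whole cultures, fewer cells of a type and less RNA per cell cannot be told apart, and the part of these cell types in the Serpina3f, Serpina3h and Serpina3i signal was not tested.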

How the data were processed

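RNA of 3 control and 3 TGF-β1-treated 2D-MAO cultures was measured on single-dye Agilent mouse arrays. The files deposited by the authors hold spot intensity on a linear scale from Feature Extraction 11.0.1.1, subtracted for background and not normalised between arrays, with the mark for spots well above background and other spot marks. Control spots and outliers were left out, which left 56599 of 56605 probes. Probes were named by RefSeq accession (32991 of 35883 matched). Log2 intensities were normalised by quantiles, as in the methods. Genes, each by its brightest probe, were tested with limma 3.58.1 in R 4.3.3 when well above background on at least 3 of 6 arrays (14345 genes, 171 higher and 27 lower at 2-fold and adjusted p under 0.05). The fit was tested on simulated data.

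All 7 members and 4 other paralogues were named, and of the other serpin list the genes called plus the 4 with the largest differences, except 1 gene that is not reported here. Of each other list, up to 3 called genes were named, or else the 2 with the largest differences. Members and lists were chosen with earlier results of these data known. Promoters were taken from RefSeq (GRCm38.p6) and aligned with Biopython. The normexp alternative used spot medians, and proteins were not analysed here. Alternatives were 75th percentile scaling, normexp background, a replicate block, other filters, the mean of probes, a trended robust prior, the methods' t-test and leaving out each array. The share of probes well above background was 55.0 to 59.0% per array, and the number of arrays limits the precision.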

Additional observations from a re-analysis of the deposited data

How the results depend on the processing

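The counts of genes called moved with the setting, and the cause was not tested. Of all genes, 171 were called higher. That count was 85 under the replicate block, 49 with no filter (more genes tested), 312 by the methods' t-test unadjusted and 4 after Benjamini-Hochberg, 48 to 550 with one array left out, and 623 within slide row 1. The 27 called lower became 16 under normexp, 11 with no filter, 76 and 1 by the methods' t-test, 7 to 156 with one array left out (156 without TGF-β1 replicate 3, which also gave the 550), 45 with slide row as a block and 233 within slide row 1. The 2 other serpins called higher became 0 under normexp, the replicate block, no filter and the adjusted t-test, 1 (Serpini1) when all 6 arrays had to be well above background, 0 to 4 with one array left out, and 6 within slide row 1. The lower count of 0 became 0 to 1 with one array left out and 1 (Serpinb6e) within slide row 1. Lcn2 was lost (0 called) under the replicate block, no filter and the adjusted t-test. The acute phase count was 0 to 2 with one array left out and 2 (Lcn2 and Lif) within slide row 1. The interferon count of 0 became 1 (Socs1) with 75th percentile scaling, 0 to 2 with one array left out and 2 (Cxcl10 and Socs1) within slide row 1. The glucocorticoid count of 0 became 0 to 1 with one array left out and 1 (Tsc22d3) within slide row 1. No protease was called under any setting tried. Both slide row settings were chosen after seeing the data.

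The difference of Serpina3f lay between 1.58 (normexp) and 5.06 over the settings, and its probe did not enter the fit when all 6 arrays had to be well above background. Serpina3f was no longer called under the replicate block, no filter and the adjusted t-test. The call was also lost when either of the treated cultures 1 and 2 was left out. Replicate numbers did not pair the cultures: same-numbered cultures correlated at -0.01, 0.33 and -0.05 in their deviations from the group means over 14345 genes. Scaling moved the median of all genes from -0.03 to -0.09. Dim signal limits Serpina3c, Serpina3k and Serpina3n, which had no level above background.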
